A study of Mus musculus with 12 samples.

Results

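The olfactory bulb was compared with the hippocampus across the probes of a mouse array for long noncoding RNAs and messenger RNAs. The comparison takes all 3 olfactory bulb scans and all 3 hippocampus scans of a study of 4 brain regions with 12 scans; the hypothalamus and the cerebellum are the other 2 regions. Both groups are male Balb/c mice aged 10 weeks, and region is the only labelled difference between them. The labels name no treatment or allele, and they do not tie a scan to an animal, although the series text speaks of 3 mice on the arrays. Probes were chosen by no measured value: every probe that the scanner software did not mark as a control entered, apart from 15 named as negative, which left 60915.

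The olfactory bulb is the first relay of smell. Axons of sensory neurons in the nose end there on mitral and tufted cells, and most of its neurons are small inhibitory granule and periglomerular cells, some of them born in adult life. The hippocampus serves memory and spatial maps, and its main neurons are excitatory pyramidal cells and dentate granule cells. Long noncoding RNAs are transcripts that are not known to encode a protein, and many of them are found in 1 tissue or cell type more than in others. In dissected tissue, fewer cells of a type and less RNA per cell cannot be told apart.

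No probe was saturated on any of the 6 scans. The share of probes marked as well above background was 91.1% to 93.2% on the olfactory bulb scans and 87.9% to 90.8% on the hippocampus scans, and their median processed signals were 394 to 443 and 316 to 335 intensity units. Hippocampus replicates 1 and 3 differed by an SD of 0.028 log2 units over 15195 bright probes, less than the spread of copies of a probe within any hippocampus scan (SD 0.055 to 0.079), and shared 35 spots marked as non-uniform. They were averaged and counted as 1 array, named hippocampus array 1 below, so 3 olfactory bulb arrays stood against 2 hippocampus arrays. How few arrays there are limits how precise any value can be. Of 198 genes in 19 marker lists for the cells of these regions, 0 had a probe named for them in the files, so the tissue labels were not checked against markers. The olfactory bulb occupied 1 fixed position on every slide and the hippocampus another, and the effects of position and of region cannot be told apart.

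The olfactory bulb and the hippocampus differed in 4088 of 56573 probes tested (7.23%), with the higher level in the olfactory bulb for 2566 (4.54%) and in the hippocampus for 1522 (2.69%). Levels are given as log2 processed signal after subtracting each array's 75th percentile. Probes entered the test when every scan of at least 1 of the 4 regions had them well above background, and a probe was called different at an adjusted p under 0.05 in limma with at least a 2-fold difference of region means. By the adjusted p alone 11496 probes (20.3%) differed, 7408 of them by less than 2-fold, and 1485 probes passed 2-fold without the adjusted p. The arrays of the 2 regions did not overlap for 4088 of the 4088 called probes, against 42.5% of all tested. The calls were made on these same arrays, so this describes the calls and does not test them. The count higher in the olfactory bulb was 1594 under normexp background correction with quantile normalization and 1587 under normexp with the same scaling, where 1166 and 1225 were higher in the hippocampus.

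The excess of probes higher in the olfactory bulb held across sizes of difference. At 4-fold or more there were 690 called probes higher in the olfactory bulb and 405 higher in the hippocampus, at 8-fold 263 and 133, at 16-fold 103 and 41, and at 32-fold 39 and 17. The olfactory bulb's share of the calls was 62.8% at 2-fold and 69.6% at 32-fold. These are measured folds. They include 251 called probes detected on every olfactory bulb scan and no hippocampus scan, and 62 with the reverse. Measured folds of such probes rest partly on signals not above background, and their part in these shares was not tested. Most probes stood close to each other in the 2 regions: the median log2 difference over all tested was 0.02, the median absolute difference 0.31 and the median standard error 0.18. The median spread among arrays of a region (SD) was 0.19 for the olfactory bulb and 0.18 for the hippocampus. With probes split by mean level into 5 bins of like size, 7.63% of the dimmest bin and 7.81% of the brightest were called, and the olfactory bulb's share of these calls was 68.9% and 60.7%.

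**Figure D1:**
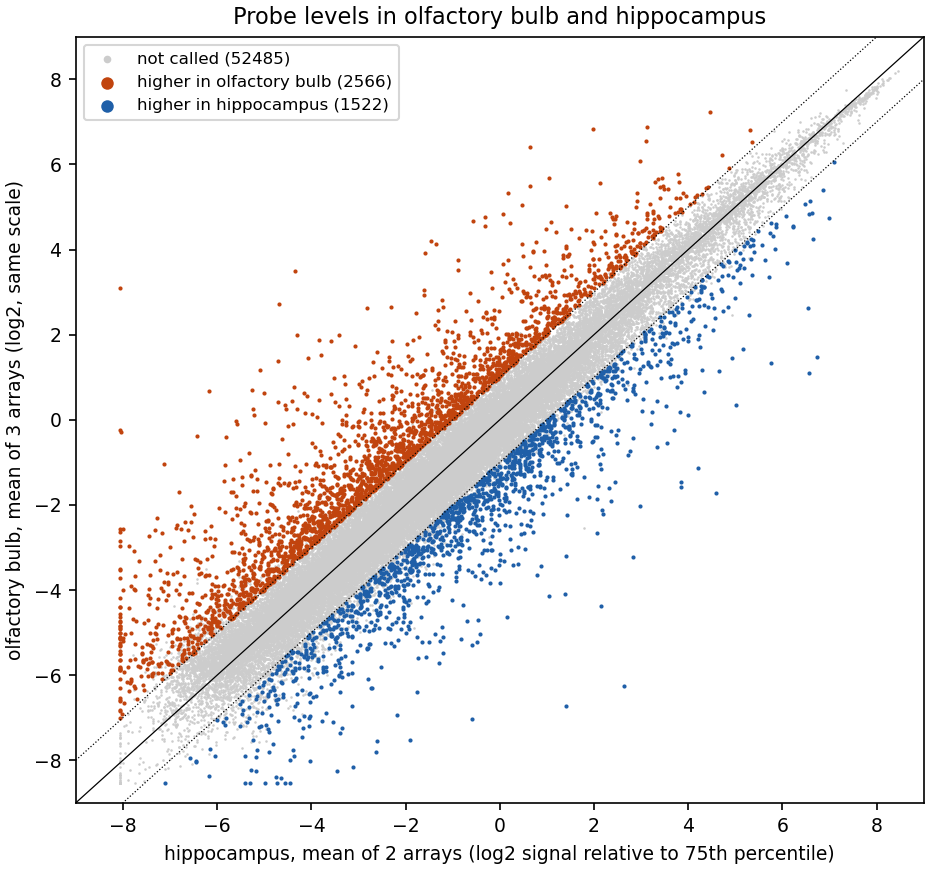
Each point is 1 of the 56573 probes tested, placed by its mean over 2 hippocampus arrays (x axis) and over 3 olfactory bulb arrays (y axis), both as log2 signal above or below each array's 75th percentile. The solid line marks equal levels and the dotted lines a 2-fold difference. The 2566 called probes higher in the olfactory bulb lie above the upper dotted line and the 1522 higher in the hippocampus below the lower one. Points lined up at the left edge and the bottom edge are at the lowest signal that the scanner software gives.

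Levels in the hypothalamus and the cerebellum, which did not enter the difference, were set beside these calls. Of the 2566 probes higher in the olfactory bulb, 1116 (43.5%) stood nearer to the hippocampus level in both other regions, 450 (17.5%) nearer to the olfactory bulb level in both, 462 (18.0%) nearer to the olfactory bulb in the hypothalamus alone and 538 (21.0%) in the cerebellum alone. Of the 1522 higher in the hippocampus, 615 (40.4%) stood nearer to the olfactory bulb level in both other regions and 263 (17.3%) nearer to the hippocampus level in both. The cerebellum alone sided with the olfactory bulb for 434 (28.5%) of these and the hypothalamus alone for 210 (13.8%). Over all tested probes both other regions were nearer to the hippocampus for 28.2% and nearer to the olfactory bulb for 27.6%. In both directions, the most frequent arrangement was therefore that the region with the higher level stood alone. Both distances of a probe use the arrays that made the call, so these counts are a description with no test.

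The files give array-design IDs and no gene for nearly all probes, so the largest differences are reported by ID. ASMM10P033688 stood at 3.61, 3.42 and 3.48 on the 3 olfactory bulb arrays and at -4.12 and -4.58 on the 2 hippocampus arrays. The difference was 7.85 on the log2 scale (SE 0.20, adjusted p 3.93e-07), a 231-fold difference, the largest in favour of the olfactory bulb among called design IDs detected on at least 1 scan of both regions. The hypothalamus (-4.46) stood near the hippocampus. The cerebellum mean (-8.41) lay lower still, near the lowest signal that the scanner software gives.

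ASMM10P031974 stood at 2.81, 2.64 and 2.71 in the olfactory bulb and at -5.21 and -4.17 in the hippocampus, a difference of 7.41 (SE 0.26, adjusted p 1.35e-06). Its hypothalamus mean of -0.51 lay between the 2 regions and its cerebellum mean of -4.59 at the hippocampus level. ASMM10P041204 stood at 0.68, 0.64 and 0.72 against -5.96 and -6.40, but only 1 of the 3 hippocampus scans had it well above background, and its difference of 6.86 was 4.79 and 4.73 under the normexp settings. In these probes the 3 olfactory bulb arrays lay closer together than the 2 dim hippocampus arrays.

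Other probes of this kind differed in where the hypothalamus and the cerebellum stood. ASMM10P012898 was bright in the olfactory bulb, at 6.48, 6.32 and 6.43, and stood at 0.67 and 0.61 in the hippocampus, a 54.5-fold difference (log2 5.77, SE 0.10, adjusted p 2.66e-07). Its cerebellum mean of 5.44 was close to the olfactory bulb and its hypothalamus mean of 0.97 to the hippocampus. ASMM10P030505 had the other arrangement, at 1.92, 1.77 and 1.95 in the olfactory bulb and -3.91 and -3.74 in the hippocampus, with the hypothalamus at 0.82 and the cerebellum at -4.45. ASMM10P031876 was arranged likewise, with means of 1.37 ± 0.17 (SD, n = 3) in the olfactory bulb, 0.30 in the hypothalamus, -4.70 ± 0.19 (SD, n = 2) in the hippocampus and -5.31 in the cerebellum. For ASMM10P025201 (difference 6.31) and ASMM10P037579 (6.26) the hypothalamus means of -2.70 and -2.93 lay between the 2 regions. ASMM10P035386, at -0.28, -0.50 and -0.39 against -5.58 and -7.29, had the widest spread in the hippocampus (SD 1.21, n = 2), was above background there on 2 of 3 scans, and its difference of 6.04 was 3.71 and 3.63 under the normexp settings.

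Among the largest differences in favour of the hippocampus, ASMM10P049924 had arrays that lay close together. It stood at -1.64, -1.76 and -1.77 on the olfactory bulb arrays and at 4.69 and 4.48 on the hippocampus arrays, a 79.2-fold difference (log2 -6.31, SE 0.12, adjusted p 2.67e-07), with the hypothalamus (-1.21) and the cerebellum (-4.60) on the olfactory bulb's side. ASMM10P033217 was brighter, at 6.58 and 6.53 against 1.07, 1.04 and 1.21, a 43.7-fold difference, with both other regions at or below the olfactory bulb level (-0.90 and 0.77). ASMM10P009601 stood at 2.25 and 2.04 in the hippocampus and at -4.81, -4.17 and -4.13 in the olfactory bulb. In these probes the hippocampus stood apart from all 3 other regions.

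The largest difference measured in this direction was less precise. ASMM10P016670 stood at 2.75 and 2.52 in the hippocampus and at -4.52, -5.87 and -8.39 in the olfactory bulb, where it was above background on 2 of 3 scans; the difference was -8.90 with a standard error of 0.94 (adjusted p 0.000374). Without olfactory bulb replicate 3, whose value was not above background, it was -7.83, and under the normexp settings -6.53 and -6.67. ASMM10P029567, above background on 1 of 3 olfactory bulb scans, differed by -6.43 (SE 0.67), or by -3.72 and -3.90 under the normexp settings. Its call was lost in a fit of the 2 regions alone with slide as a block (adjusted p 0.0587). In that fit olfactory bulb array 3 shares its slide with no hippocampus array and adds nothing to the difference. Even ASMM10P049924, with a difference of -6.28 there, had an adjusted p of 0.0418. A call lost in that fit, here or below, therefore says little about a single probe. The remaining 5 of the 10 largest, ASMM10P036854, ASMM10P046261, ASMM10P014602, ASMM10P014601 and ASMM10P031296, differed by -6.05 to -5.29 and were above background on all 6 scans.

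**Figure D2:**
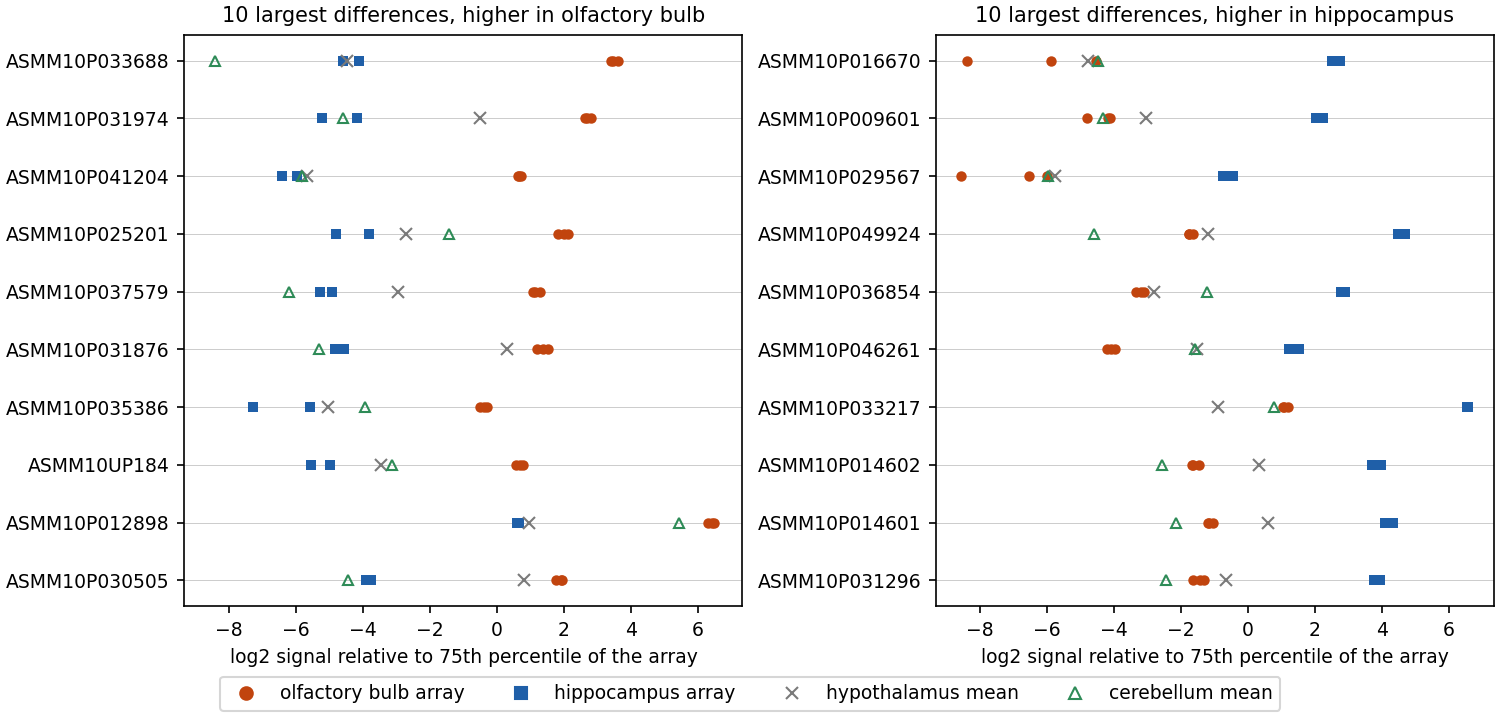
The 10 called array-design probes with the largest differences in each direction among those above background on at least 1 scan of both regions, as log2 signal above or below each array's 75th percentile. Circles are olfactory bulb arrays, squares hippocampus arrays, crosses hypothalamus means and triangles cerebellum means. In both panels circles and squares lie far apart and the other 2 regions take varied positions: ASMM10P012898 has its cerebellum mean of 5.44 near the olfactory bulb, and ASMM10P030505 has its hypothalamus mean of 0.82 there.

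Of the called probes, 3 per direction were named for the highest level averaged over both regions, a rank that favours small differences. ASMM10P007635 stood at 7.21, 7.17 and 7.33 in the olfactory bulb and at 4.52 and 4.42 in the hippocampus, a 6.81-fold difference (log2 2.77, SE 0.10, adjusted p 1.53e-06). ASMM10P012847 differed by 1.17 (SE 0.10), with means of 6.52 in the olfactory bulb and 5.36 in the hippocampus, whereas the hypothalamus stood at 1.89 and the cerebellum at -1.74, so a signal that the 2 compared regions share at a high level was far lower elsewhere. ASMM10P056192 was 2.83-fold higher in the olfactory bulb and as high in the cerebellum (6.94) as in the olfactory bulb (6.82). In favour of the hippocampus, ASMM10P011097, ASMM10P013997 and ASMM10P050151 differed by -1.03, -1.46 and -1.45. ASMM10P011097 fell just under 2-fold, and lost the call, under 5 alternatives, quantile normalization and the authors' table among them. The hypothalamus mean of ASMM10P013997 (6.80) stood at the hippocampus level (6.87). A hippocampus level as high also occurred with a large difference: the mean of ASMM10P036853 was 6.73 there and the difference -5.26.

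Detection gave a lopsided count. Every olfactory bulb scan and no hippocampus scan had 619 probes well above background, of which 251 were called, and the reverse held for 63 probes, of which 62 were called. Over all probes tested 7.23% were called, but these sets were picked by a difference in detection on the same scans. On all scans of both regions 51903 probes were above background. Leaving out a scan relaxes the rule, so the counts for 1 region alone can only rise. Without the hippocampus array of replicates 1 and 3 the 619 became 1780. The 63 became 146 without olfactory bulb replicate 1, 149 without that hippocampus array and 195 without hippocampus replicate 2. The scans with the fewest probes above background belonged to the hippocampus, as given above, and the part of this in the count was not tested. Of the 619 probes, 95 were above background on no scan of the hypothalamus or the cerebellum either, and of the 63 probes 12 were.

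For a probe detected in 1 region alone, a fold is given as a lower bound, against the lowest signal that counted as well above background on each array or the probe's own signal, whichever was higher. The bounds hold for the processed signal: normexp with its offset of 50 intensity units raises dim signals, and its folds can be smaller. The bound was at least 2-fold for 107 of the 619 probes and 53 of the 63. ASMM10P031544 stood at 3.14, 3.02 and 3.13 in the olfactory bulb. In the hippocampus it was not well above background, with measured values of -8.11 and -7.99. The difference was at least 452-fold in processed signal. The adjusted p of 4.31e-09 belongs to the measured difference of 11.1 log2 units and not to the bound. Under the normexp settings the difference was 165-fold and 162-fold. The cerebellum mean of this probe was 0.00 and its hypothalamus mean -2.86. For ASMM10P011241 the bound was 45.0-fold, with 19.0-fold and 17.6-fold under normexp, and for ASMM10P014468 43.2-fold, with 16.2-fold and 15.3-fold. Both probes stood at -7.71 or lower in the other 3 regions.

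In the other direction, ASMM10P043062 stood at 1.44 and 1.35 in the hippocampus and was not well above background in the olfactory bulb, with measured values of -6.37, -7.36 and -6.43. It was at least 195-fold higher in the hippocampus in processed signal, or 45.9-fold and 52.3-fold under normexp. The adjusted p of 1.43e-06 belongs to the measured difference of -8.11 log2 units. The hypothalamus mean of 1.49 was close to the hippocampus mean. The bound was 19.8-fold for ASMM10P054520 (6.25-fold and 7.08-fold under normexp) and 12.0-fold for ASMM10P024857 (3.88-fold and 4.41-fold under normexp). The cerebellum mean of ASMM10P024857 (-2.27) was close to the hippocampus mean (-2.62). The call of ASMM10P024857 was lost in the fit of the 2 regions alone with slide as a block (adjusted p 0.0651).

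Replicates 1 and 2 of both regions shared a scan time each, taken as slide 1 and slide 2, which gives 2 differences per probe with no array in common. The slide 1 difference uses hippocampus array 1, which averages in replicate 3, a near-identical scan with another scan time. Across 56526 probes these differences correlated at r = 0.702; probes share the arrays and are not independent replicates. Differences in favour of the olfactory bulb recurred more often than those in favour of the hippocampus. Of 3032 probes past 2-fold in favour of the olfactory bulb on slide 1, 2373 (78.3%) were 2-fold higher on slide 2 and 169 had the opposite sign. Of 3521 probes past 2-fold in favour of the hippocampus on slide 1, 1374 (39.0%) were so on slide 2 and 537 had the opposite sign.

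Starting from slide 2, 74.7% of 3176 probes higher in the olfactory bulb and 40.1% of 3430 higher in the hippocampus were 2-fold the same way on slide 1. Before any test, then, more probes passed 2-fold in favour of the hippocampus than of the olfactory bulb on each slide, whereas 1374 and 2373 did so on both. The gap between the directions was present at every level of signal. In the dimmest of the 5 bins 59.1% of the olfactory bulb's and 29.5% of the hippocampus's 2-fold differences recurred, and in the brightest 93.5% and 58.6%. Of the 4088 called probes, 3495 were 2-fold the called way on both slides. The arrays of both slides are among those that made the calls, so this count is no test of them. With slide as a block 4215 probes (7.45%) were called, 2614 higher in the olfactory bulb and 1601 in the hippocampus, and by the adjusted p alone 21105 (37.3%).

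**Figure D3:**
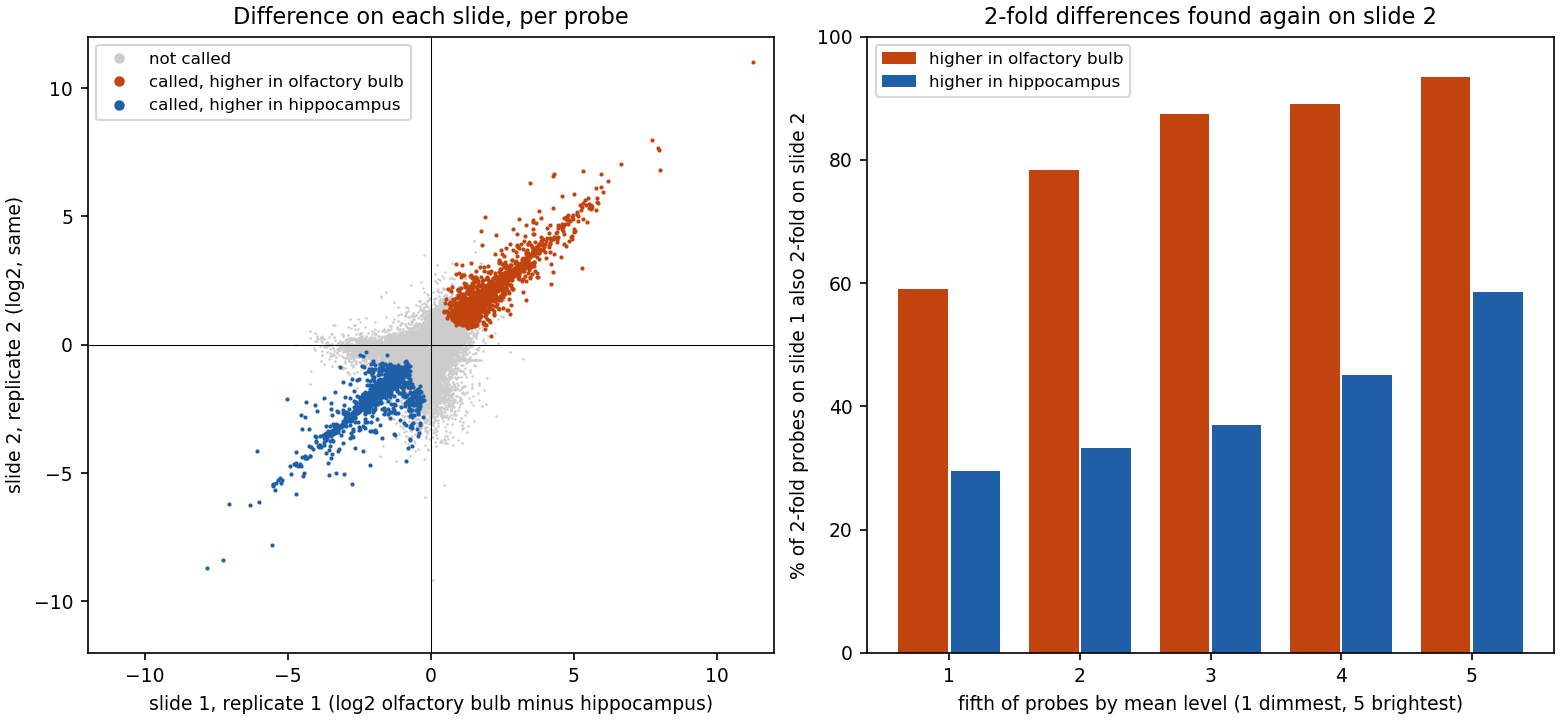
Left, the olfactory bulb minus hippocampus difference of each probe on slide 1 (x axis) and slide 2 (y axis), in log2 units; grey points were not called, and the coloured points were called in the fit over all arrays. Right, the percentage of 2-fold differences on slide 1 that were 2-fold the same way on slide 2, in 5 bins of mean level. Grey points spread along the axes below and to the left of 0, where a difference in favour of the hippocampus was present on 1 slide alone, and the bars of the olfactory bulb exceed those of the hippocampus in all 5 bins (93.5% against 58.6% in the brightest).

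Probes whose ASMM10P design IDs follow each other tended to differ alike. Consecutive IDs had log2 differences that correlated at r = 0.137 over 50953 pairs, against 0.077 at an ID distance of 2, 0.014 at 10 and 0.0056 at 50. Of the called probes, 16.7% were followed by a called probe at the next ID, and 533 of 631 such pairs (84.5%) had the same direction; at a distance of 50 these were 8.32% and 54.7%. The spots of consecutive IDs lay a median of 135 spot positions apart on the array, as far as those at a distance of 50, so neighbouring IDs were not neighbouring spots. ASMM10UP IDs correlated at r = 0.383 over 683 consecutive pairs. The files do not say what the order of the IDs follows, and the correlations carry no p because probes share the arrays.

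Called probes of 1 direction formed 408 runs of consecutive ASMM10P IDs, which held 941 of the 3980 called (23.6%). Of the 26 runs with 4 or more probes, 9 were higher in the hippocampus, none of them longer than 4, and the longest run higher in the olfactory bulb had 17. The runs described next were picked for their values and carry no test of their own. From ASMM10P039352 to ASMM10P039376, 24 of 25 probes were called higher in the olfactory bulb, by 1.11 to 3.13 on the log2 scale with a median of 2.64 (6.23-fold), although their levels in the olfactory bulb ranged from -2.85 to 4.71. The exception was ASMM10P039359, which was dim in both regions, at -4.83 and -4.78.

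ASMM10P039372 is an example of the 24. It was at 4.59, 4.37 and 4.41 in the olfactory bulb and at 1.98 and 1.66 in the hippocampus, with the hypothalamus at 3.43 and the cerebellum at -0.66. Most of the 24 probes shared this order: the cerebellum lay below the hippocampus in 24 of them, by a median of 2.18, and the hypothalamus lay between the hippocampus and the olfactory bulb in 21. In the other 3, near the start of the run, the hypothalamus lay just below the hippocampus. These were ASMM10P039352 (0.09 against 0.26), ASMM10P039354 (-1.06 against -0.94) and ASMM10P039355 (0.92 against 0.94). A graded series over 4 regions thus repeated in most probes of the run, while the spots were scattered from row 16 to row 375 of the array.

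A run of 8 ASMM10UP probes, ASMM10UP183 to ASMM10UP190, was called higher in the olfactory bulb. The 6 that were detected in both regions differed by 4.30 to 5.94, with a median of 5.28 (38.8-fold). The others, ASMM10UP188 and ASMM10UP189, were above background on no hippocampus scan, with bounds of 4.61-fold and 8.43-fold, and with these bounds the median of the 8 was 29.0-fold. ASMM10UP186 stood at 2.15, 1.91 and 1.95 in the olfactory bulb and at -3.29 and -3.55 in the hippocampus. The measured hypothalamus mean lay between the 2 regions in 8 of the 8, a median of 1.39 above the hippocampus, and the cerebellum mean a median of 1.46 above it. The hippocampus thus had the lowest measured mean, but for the 2 undetected probes its place rests on signals that were not above background. In the run ASMM10P021310 to ASMM10P021314, 5 of 5 probes were higher in the olfactory bulb, by 2.20 to 4.88 (median 23.0-fold). ASMM10P021310 stood at 5.75, 5.59 and 5.72 against 1.13 and 0.95, and here the hypothalamus and the cerebellum lay below the hippocampus in 5 of 5 probes. The median difference from the hippocampus was -2.92 for the cerebellum but only -0.29 for the hypothalamus.

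Runs higher in the hippocampus were shorter. ASMM10P014601 to ASMM10P014603 were higher there by 4.73 to 5.43 log2 units (median 40.5-fold), and ASMM10P014601 stood at 4.32 and 4.09 in the hippocampus and at -1.03, -1.17 and -1.19 in the olfactory bulb. ASMM10P036853 stood at 6.82 and 6.65 in the hippocampus and at 1.61, 1.36 and 1.45 in the olfactory bulb, and the next ID, ASMM10P036854, at 2.89 and 2.78 against -3.11, -3.35 and -3.19. Not every neighbour followed. ASMM10P033218, next to the hippocampus-high ASMM10P033217, was called higher in the olfactory bulb by 2.43 log2 units. On either side of ASMM10P031544, ASMM10P031543 was called higher in the hippocampus (-2.06) and ASMM10P031545 higher in the olfactory bulb (3.09).

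**Figure D4:**
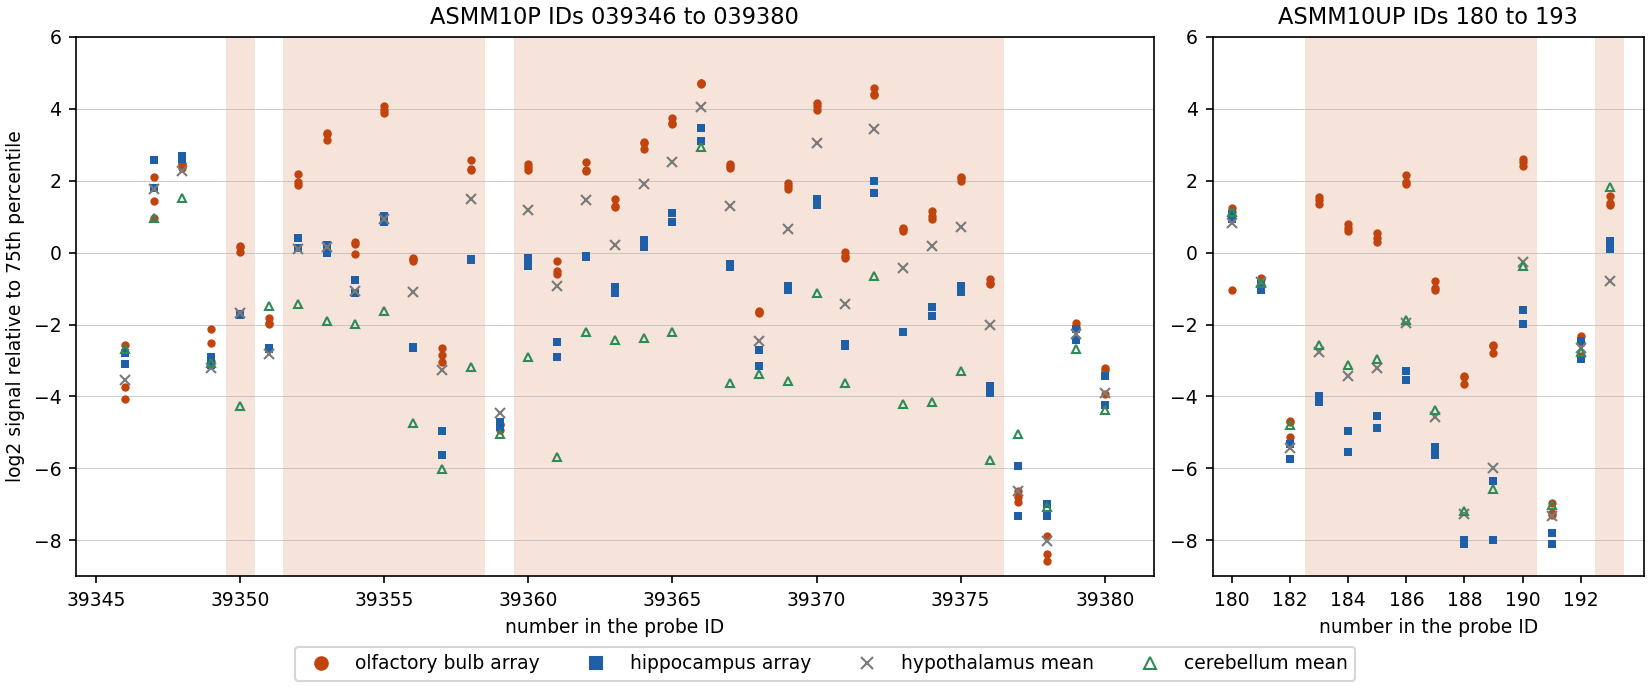
Log2 signal relative to the 75th percentile (y axis) of probes in order of the number in their ID (x axis), around the longest ASMM10P runs (left) and the longest ASMM10UP run (right). Circles are olfactory bulb arrays, squares hippocampus arrays, crosses hypothalamus means and triangles cerebellum means, and shading marks called probes. Inside the shaded stretch on the left the cerebellum is lowest, followed by the hippocampus, the hypothalamus and the olfactory bulb in most probes. In the run of 8 on the right the hippocampus has the lowest measured values, which for ASMM10UP188 and ASMM10UP189 were not above background.

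Among 1432 tested probes named for lincRNAs, long noncoding RNAs of intergenic regions, 20 were called (1.4%), 16 with the higher level in the olfactory bulb and 4 in the hippocampus. The share called was 7.32% for 54336 ASMM10P probes and 11% for 790 ASMM10UP probes. Within the lincRNA-named probes it was 0.823% of 851 with human names, 1.79% of 504 with mouse names and 5.19% of 77 named for mm9 lincRNA exons. The lincRNA-named probes were dim, with a median level of -3.29 against -1.67 for all probes, but their median absolute difference of 0.29 was close to the 0.31 of all probes. Of the 20, 10 were above background on all scans of both regions. The count of calls was 8 under each normexp setting, 32 without olfactory bulb replicate 1 and 33 without the hippocampus array of replicates 1 and 3.

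mouselincRNA0100-_P1 stood at -2.70, -2.96 and -2.66 in the olfactory bulb and was above background on no hippocampus scan, where its measured values were -6.09 and -6.23. The olfactory bulb was at least 7.72-fold higher in processed signal, or 2.91-fold and 2.71-fold under the normexp settings. The adjusted p of 2.06e-06 belongs to the measured difference of 3.38 log2 units. Both other regions were about as low as the hippocampus (-5.73 and -5.83). mouselincRNA1177-_P1, detected in both regions, stood at -2.32, -2.54 and -2.61 against -4.61 and -4.67, a 4.44-fold difference (log2 2.15, SE 0.17, adjusted p 7.06e-05), or 2.51-fold and 2.38-fold under normexp, and its cerebellum mean of -2.04 was above the olfactory bulb's. mouselincRNA0773+_P1 and mouselincRNA0675-_P1, detected on no hippocampus scan, were at least 1.64-fold and 1.17-fold higher in the olfactory bulb. Both fell under 2-fold, and so lost the call, under both normexp settings, at 1.48-fold and 1.28-fold for the first and 1.41-fold and 1.19-fold for the second. The first also lost it in the fit of the 2 regions alone with slide as a block (adjusted p 0.0543). In favour of the hippocampus, humanlincRNA0364+_P1 was at least 1.73-fold higher. Its measured difference was -2.48 log2 units (adjusted p 0.0497). Without hippocampus array 1 or hippocampus replicate 2 it was -2.74 or -2.22. The call was lost in both of these fits, each of which leaves 1 hippocampus array. The call was lost too without any 1 of the 3 olfactory bulb arrays (adjusted p 0.0801 to 0.124) and under both normexp settings (1.48-fold and 1.74-fold). It was also lost with no filter on dim probes (adjusted p 0.0514), with trended robust variance (0.0549) and in the fit of the 2 regions alone with slide as a block (0.0949).

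Genes were named for 15 probes through RefSeq accessions, each printed in 20 copies, and most are housekeeping genes that serve as references. By the call rule 1 of the 15 differed (6.67%), against 7.23% of all probes tested. Ldhal6b, a relative of the lactate dehydrogenases, stood at -1.25, -1.06 and -1.25 in the olfactory bulb and at -2.80 and -2.18 in the hippocampus, a 2.46-fold difference (log2 1.30, SE 0.20, adjusted p 0.00259). The hypothalamus (-2.57) and the cerebellum (-2.50) stood at the hippocampus level. The call was lost in the fit of the 2 regions alone with slide as a block (adjusted p 0.0581) and without the hippocampus array of replicates 1 and 3, where the difference was 0.99.

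Smaller differences passed the adjusted p alone for 4 more genes, so that 5 of 15 passed it, against 20.3% of all probes tested. Gusb, which encodes a lysosomal enzyme, stood at -0.30, -0.48 and -0.44 in the olfactory bulb and at -1.09 and -1.24 in the hippocampus (log2 0.75, SE 0.11, adjusted p 0.00188). B2m, which encodes beta-2 microglobulin of the antigen-presenting complexes, stood at 3.35, 3.21 and 3.28 against 2.92 and 2.81 (log2 0.42, adjusted p 0.0188). Tbp, the TATA-binding protein of the transcription machinery, stood at 0.68, 0.44 and 0.58 against 0.24 and -0.04 (log2 0.47, adjusted p 0.0492). Actb, the cytoskeletal beta-actin, was lower in the olfactory bulb, at 3.93, 3.93 and 4.14 against 4.38 and 4.38 (log2 -0.38, adjusted p 0.032).

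The arrays of the 2 regions did not overlap for 9 of the 15 genes, against 42.5% of all probes, and Nono, Gapdh, Hprt and Hsp90ab1, which did not pass, were among the 9. In the fit of the 2 regions alone B2m, Tbp and Actb no longer passed the adjusted p, whereas Gusb did. Tbp also did not pass under quantile normalization (adjusted p 0.0544) or with no filter on dim probes (adjusted p 0.052). B2m no longer passed without olfactory bulb replicate 1 or 3 or either hippocampus array, Actb without olfactory bulb replicate 1 or 2 or either hippocampus array, and Tbp without any 1 of the 5 arrays.

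The other 10 genes did not pass the adjusted p. Ppia, a cyclophilin, differed by 0.01 (SE 0.09), Tfrc, the transferrin receptor, by -0.03 (SE 0.10), and Tuba1b, an alpha-tubulin, by -0.08 (SE 0.10). Gk, glycerol kinase, differed by 0.0049 with a wider standard error of 0.24, G6pd2, a glucose-6-phosphate dehydrogenase gene, by 0.05 (SE 0.08), and Rpl13a, a ribosomal protein gene, by 0.10 (SE 0.17). Gapdh, a glycolytic enzyme, was at -0.18 (adjusted p 0.34) and Hprt, a purine salvage enzyme, at -0.15 (adjusted p 0.356). Nono, a nuclear RNA-binding protein, was at 0.34 (adjusted p 0.0666) and Hsp90ab1, a chaperone, at -0.37 (adjusted p 0.0656).

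With slide as a block 5 of these passed the adjusted p: Hsp90ab1 (0.00142), Nono (0.00205), Gapdh (0.023), Hprt (0.0302) and Rpl13a (0.0364), Rpl13a with a difference of 0.15, in a fit where 37.3% of all probes passed. In the fit of the 2 regions alone with that block none of these 5 passed (adjusted p 0.0624 to 0.171). In that fit 14.2% of all probes passed, and the adjusted p was 0.0418 even for ASMM10P049924, so this says little about the 5. Hsp90ab1 also passed under quantile normalization (0.0431), normexp with quantile normalization (0.0313), trended robust variance (0.0367) and with all 12 scans counted (0.00979). Nono also passed under normexp with the 75th percentile (0.0468), trended robust variance (0.0471) and with all 12 scans counted (0.0227). The fit of all 12 scans counts near-identical scans as separate arrays, and 28.4% of all probes passed there, against 20.3% in the main fit. Close relatives or processed copies exist for Ldhal6b, Actb, G6pd2, Gapdh, Ppia, Rpl13a and Tuba1b, so the probes of these genes may also read other transcripts.

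**Figure D5:**
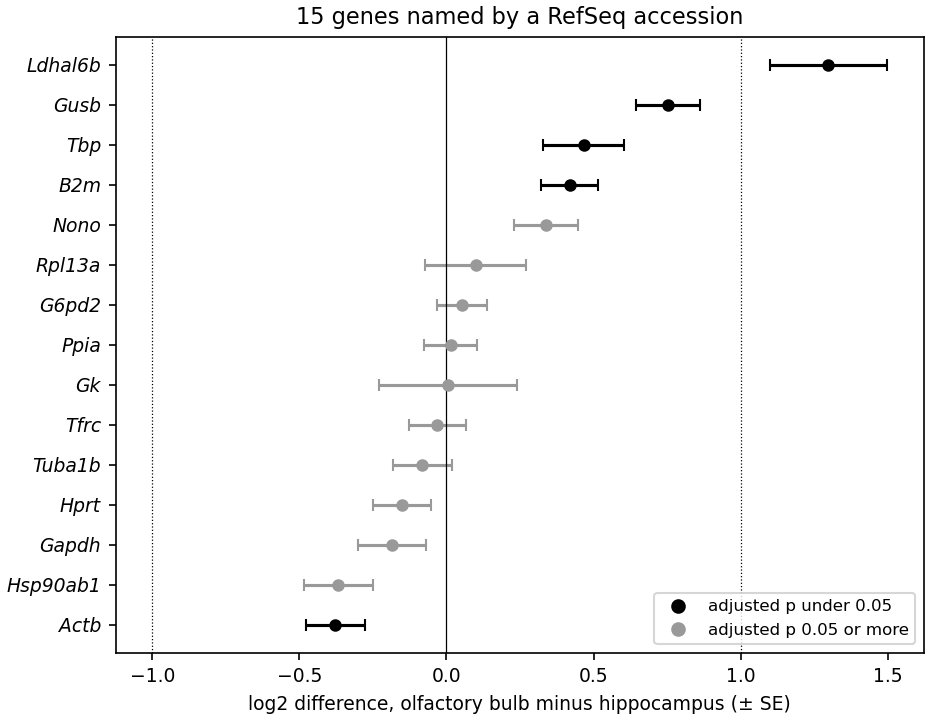
Log2 difference, olfactory bulb minus hippocampus (x axis), of the 15 genes named by a RefSeq accession, with the standard error of the fit as bars. Black points passed an adjusted p under 0.05 and grey points did not; dotted lines mark a 2-fold difference. Ldhal6b at 1.30 is the gene past the dotted lines.

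Both regions gave like values in the probes for the ends of a transcript. For PGK1 the 3′ probe was above the 5′ probe by 7.19, 7.42 and 7.48 log2 units on the 3 olfactory bulb arrays and by 7.05 and 7.29 on the hippocampus arrays. For GAPDH these were 1.30, 1.14 and 1.19 against 1.26 and 1.06. The ranges of the 2 regions overlapped for both genes.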

How the data were processed

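Per the labels' protocols, RNA depleted of ribosomal RNA was amplified with random primers and labelled with Cy3. Spot intensity values were extracted by the authors with Agilent Feature Extraction 11.0.1.1, per the submitters' processing notes, and per the file headers the deposited processed signal is a background-subtracted intensity. The authors also deposited a value table on the log2 scale, used as an alternative. Nothing used here states its normalization, and it holds no value for the 15 RefSeq-named probes. No column pairs the other probes with genes, and the probe names refer to the mm9 build.

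Outlier spots (6 to 69 per scan) were left out, copies averaged, and the 75th percentile of each scan subtracted. R 4.3.3 and limma 3.58.1 (lmFit, eBayes, Benjamini-Hochberg over all probes tested) fitted 10 arrays with 1 mean per region and a shared spread, which left 6 residual degrees of freedom. Labels do not tie arrays to animals, so the p-values reflect only the spread of these arrays, which may be technical. Slides were inferred from scan times, which coincide with replicate numbers 1 and 2.

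The probes reported, the rule that names them and the lists were chosen with earlier results of these data known. The rule took, per direction, the 10 called design IDs with the largest difference among those detected on at least 1 scan of both regions, the 3 with the highest level and the 3 largest detected in 1 region alone, plus 5 lincRNA-named probes and the 15 RefSeq genes. Runs of IDs and neighbours of named probes were picked after their values were seen. The code was tested on simulated data. Alternatives were quantile normalization, normexp (offset 50), the authors' table, other filters, the replicate block, the 2 regions alone, all 12 scans, first scans alone, trended robust variance, and leaving out each array.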

Additional observations from a re-analysis of the deposited data

Results flagged for a closer look

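Of the 15 probes named as negative, which entered no comparison, 2 carried signal on all 6 scans of the 2 regions. MM9NEGATIVE016 had a median processed signal of at least 55.1 and at most 95.8 intensity units, and MM9NEGATIVE017 of at least 105 and at most 147. On the same scans the lowest signal of a probe well above background was 20.2 to 24.9 units. Neither probe separated the olfactory bulb from the hippocampus by 2-fold. A further 2, MM9NEGATIVE002 and MM9NEGATIVE003, were above background on 5 of the 6 scans, with medians of 17.8 to 47.3 and 18.6 to 49.7 units. What these probes bind was not tested.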

How the results depend on the processing

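No called probe was called the other way under any alternative, and the share of calls higher in the olfactory bulb ran from 55.5% (without olfactory bulb replicate 1) to 68.9% (without hippocampus replicate 1, which leaves out its near copy too). Under normexp with quantile normalization and normexp with the 75th percentile, probes higher in the olfactory bulb numbered 1594 and 1587, lincRNA-named calls 8 and 8, and ASMM10UP calls 53 and 52. LincRNA-named calls were 31 with no filter on dim probes, 12 with only probes above background on all scans, 12 in the 2 regions alone with the replicate block and 36 with all 12 scans counted. Leaving out 1 array at a time, all calls ranged from 3729 to 4472, those higher in the olfactory bulb from 2164 to 3082 and in the hippocampus from 1390 to 1927. LincRNA-named calls ranged from 21 to 33, ASMM10UP calls from 77 to 101, probes detected in the olfactory bulb alone from 696 to 1780 and in the hippocampus alone from 71 to 195. Probes higher in the olfactory bulb with both other regions nearer the hippocampus ranged from 987 to 1165, and the reverse from 582 to 710.

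With the replicate block, which is the slide block here, 4215 probes were called, and 3870 of the 4088 were among them in the same direction. Deviations from region means correlated at r = 0.465 between the arrays numbered 1 of the 2 regions and at 0.659 between those numbered 2. Over 4 regions the 13 same-numbered pairs ran from 0.0934 to 0.747 and the 24 differently numbered pairs from -0.733 to 0.381. The 2 ranges are not independent. The hippocampus and the cerebellum count 2 arrays each, whose deviations from their mean mirror each other. The lowest value, -0.733, is thus the 0.733 of a same-numbered pair with its sign reversed. The fit without the block does not take up what same-numbered arrays share. Labels do not tie arrays to animals, so the numbers were not taken as pairing animals. The lowest same-numbered value, 0.0934, was that of the olfactory bulb and cerebellum arrays numbered 2, a pair outside this comparison. Normexp with the 75th percentile and the fit of the 2 regions alone with the block were chosen after seeing the data. By the adjusted p alone, 221 of 255 values of the RefSeq genes stayed on their side of the threshold, 22 no longer passed and 12 came to pass, and 13 of 650 values of the other 37 named probes no longer passed. By the full call, with 2-fold, 22 of those 650 values, from 6 probes, and 2 of 17 values of Ldhal6b were lost, and none was gained among the other 14 genes. Signal over background limits the sizes for dim probes: the difference of ASMM10P011241 was 7.82 as reported and 4.25 under normexp with quantile normalization, and that of ASMM10P024857 was -5.19 and -1.95.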
